A study of Mus musculus with 40 samples.

Results

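The 4 Janus kinase genes (Jak1, Jak2, Jak3 and Tyk2) and 4 genes of their feedback inhibitors (Socs1, Socs2, Socs3 and Cish) were followed across RNA-seq libraries of mouse CD4+ T cells. The members were chosen by gene symbol, and all 8 were found among the 21950 genes of the deposited table. The 24 libraries fell into 8 groups of 3: conventional T cells (Tconv) and thymic Tregs (tTreg), each resting and activated, and Tregs induced in vitro (iTreg), which were resting, restimulated, or restimulated with CM-4620 or with cyclosporin A (CsA). CM-4620 blocks the ORAI channel of store-operated calcium entry, and CsA blocks calcineurin, the phosphatase that activates NFAT. The study's general methods name spleens of Foxp3-GFP reporter mice aged 2 to 4 months, on a C57BL/6 background, as the source of Tconvs and tTregs. The activated Tconvs and tTregs were stimulated through the T cell receptor. iTregs were induced from naive T cells of 6-week-old mice for 4 days with plate-bound anti-CD3 and anti-CD28, TGF-β and IL-2. They were then sorted on the Foxp3 reporter and rested for 1 day in medium with IL-2. Resting iTregs had thus already been stimulated through the T cell receptor during induction. The study also used Foxp3-RFP reporter mice, and which reporter the mice behind each library carried is not given in the sources used here. Nor is it given whether the Tconv and tTreg cultures held IL-2. The labels do not say that replicates came from separate mice, so the p-values below measure the spread between libraries, which may be technical.

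Cytokine receptors without an enzyme of their own carry Janus kinases on their cytoplasmic tails. A bound cytokine brings the kinases together, they phosphorylate STAT transcription factors, and the STATs enter the nucleus. Jak1 and Jak3 serve receptors that hold the common gamma chain, such as the IL-2 and IL-7 receptors, Jak2 serves among others the IFN-γ and IL-12 receptors, and Tyk2 the type I interferon and IL-12 receptors. Genes of the SOCS family are themselves STAT targets and their proteins close the loop: SOCS1 and SOCS3 inhibit the kinases directly, whereas CIS, the product of Cish, and SOCS2 are known above all as feedback inhibitors of STAT5 signaling. IL-2 acting through JAK1, JAK3 and STAT5 is required for Tregs to persist, and SOCS1 protects Tregs from losing Foxp3.

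On GRCm38, Jak1 lies on chromosome 4 (101152367 to 101265282), Jak2 on 19 (29251828 to 29313080), Jak3 on 8 (71676296 to 71690575) and Tyk2 on 9 (21104068 to 21131243). Socs1 lies on chromosome 16 (10782240 to 10785536), Socs2 on 10 (95385362 to 95417180), Socs3 on 11 (117966079 to 117970047) and Cish on 9 (107296026 to 107302784). Some exon bases were shared with another annotated gene, namely 11.5% for Cish (Gm17040 and Gm17041, other strand), 8.07% for Tyk2 (1700084C06Rik, other strand), 7.55% for Jak3 (Insl3, same strand) and 0.0553% for Jak1 (Raver2, other strand). Reads in the bases shared across strands cannot be assigned with certainty, since no use of strand is stated for the counting, and strand would not separate Jak3 from Insl3.

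Promoters of 300 bases, from 250 before to 50 after the annotated start site, were at hand from RefSeq (GRCm38.p6) for 7 of the 8 genes, and Socs2 had no entry. The palindromic STAT element TTCNNNGAA, which reads the same way on both strands, was searched in each of them. It was found at 2 places in Cish, at 1 in Socs3, and not within these windows of Socs1, Jak1, Jak2, Jak3 or Tyk2. Of all 32851 promoters of this length, 8.30% held the element and 0.457% held it 2 or more times. The Cish matches TTCCTGGAA and TTCTTGGAA began 0 and 11 bases from the start site, and the Socs3 match TTCTTAGAA began at base -154. The Cish and Socs3 windows lie wholly inside the gene spans given above, so the 2 annotations place the starts of these genes differently. The distances hold for the RefSeq start sites only. The calcium-responsive factor NFAT binds a core of GGAAAA, which was found on either strand once each in Cish (first base at -2, overlapping the first STAT element), Jak3 (-218) and Tyk2 (-218), and in 23.4% of all promoters. The 3 SOCS family promoters follow, since 2 of them hold the STAT element and Cish was the member with the largest log2 difference on activation of Tconvs. STAT elements are in capitals, and a match is a description of the sequence only.
Cish, chr9:107296409-107296708, plus strand: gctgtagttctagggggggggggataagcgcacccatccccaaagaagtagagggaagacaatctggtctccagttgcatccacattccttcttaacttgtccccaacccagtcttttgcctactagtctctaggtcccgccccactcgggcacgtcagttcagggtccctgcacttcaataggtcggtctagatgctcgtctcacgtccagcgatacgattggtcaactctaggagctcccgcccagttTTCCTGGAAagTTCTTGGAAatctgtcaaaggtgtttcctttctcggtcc
Socs3, chr11:117969317-117969616, minus strand: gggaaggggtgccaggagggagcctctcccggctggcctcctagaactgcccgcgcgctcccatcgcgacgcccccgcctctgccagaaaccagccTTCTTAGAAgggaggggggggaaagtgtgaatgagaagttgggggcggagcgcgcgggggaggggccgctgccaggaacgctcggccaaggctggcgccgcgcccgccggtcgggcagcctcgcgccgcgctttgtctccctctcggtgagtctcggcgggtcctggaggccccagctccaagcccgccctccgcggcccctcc
Socs1, chr16:10785487-10785786, minus strand: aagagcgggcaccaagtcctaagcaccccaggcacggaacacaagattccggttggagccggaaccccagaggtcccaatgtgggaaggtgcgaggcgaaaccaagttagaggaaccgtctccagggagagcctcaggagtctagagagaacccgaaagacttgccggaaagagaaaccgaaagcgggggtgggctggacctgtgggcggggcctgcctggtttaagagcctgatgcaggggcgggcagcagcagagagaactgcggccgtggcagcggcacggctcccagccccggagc

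The libraries held 5256800 to 15685234 reads on genes, and the values below are normalized counts, that is reads divided by a size factor for each library. A count of 3 reads, the limit below which a gene could not be told from absence, was worth 2.12 to 5.45 normalized counts, far under every value of the 8 members. Foxp3 was at 9.65 to 11.3 normalized counts in resting Tconvs, 7218 to 7767 in resting tTregs and 1178 to 1338 in resting iTregs, and the T cell markers summed to 28136 to 44157 in every library. Of the lists for other cell types, the myeloid markers summed to at most 25.3, the B cell markers to at most 142.7 with Ms4a1 and Pax5 at 0 in every library, and the markers of CD8 T and NK cells to at most 262.6. The erythroid and platelet markers summed to at most 13.6. The dendritic cell markers summed to 25.5 to 80.4 in resting Tconvs and in tTregs and to 377.1 to 430.2 in activated Tconvs. In iTregs they summed to 842.1 to 994.7 at rest, 1383 to 1398 after restimulation, 1353 to 1426 with CM-4620 and 982.2 to 1052 with CsA, mostly from H2-Ab1 and Cd74, with Siglech at 0 in all 12 libraries, and their part in the results was not tested. Among tTregs, resting replicate 1 and activated replicate 2 were the deepest libraries of their groups, with 9688361 and 9893053 reads, and they stood apart from their replicates for several members. The variance between tTreg replicates was 10.1 to 29.9 times that of counting alone, against 1.57 to 9.05 times in the other groups.

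The make-up of both families differed between the cell types, as the plot of family composition shows. Levels were divided by the length of the union of each gene's exons, in kilobases, so that genes could be set side by side. In resting Tconvs Jak1 made up 93.1% ± 0.585 (SD, n = 3) of the summed level of the 4 Janus kinases per kilobase and Jak3 1.38% ± 0.138. Activated Tconvs had 66.6% Jak1 and 19.1% Jak3, and resting tTregs 74.5% and 12.03%. In resting iTregs the pair was near parity, with 42.3% Jak1 and 45.5% Jak3, and in restimulated iTregs Jak3 took 50.8%. The ratio of Jak3 to Jak1 per kilobase was therefore 0.0148 in resting Tconvs, 0.163 in resting tTregs and 1.08 in resting iTregs, and with the longest transcript as the length it was 0.0133, 0.146 and 0.968. Jak2 and Tyk2 stayed below 10% in every library.

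Among the feedback genes, Socs3 led in resting Tconvs with 65.3% of the summed level of the 4 genes per kilobase. Cish had the highest mean in every other group when exon unions were the length, with 36.3% to 56.8%. In resting tTregs that lead came from replicate 1, with Cish at 58.2% and Socs3 at 10.3%. Socs3 led in replicate 2 (41.1% against 38.0%), and the 2 genes were close in replicate 3 (37.3% against 38.0%). Socs2 held 3.85% in resting and 3.95% in activated Tconvs, but 18.7% in resting tTregs and 32.4% in resting iTregs. The length used matters for Socs2, whose exon union is 9531 bases and whose longest transcript is 4242 bases: the mean ratio of Socs2 to Cish in resting iTregs was 0.827 with the first and 1.36 with the second. The summed level of the 4 feedback genes rose from 212.1 ± 4.39 normalized counts per kilobase in resting Tconvs to 1882 ± 114 in activated Tconvs, and in the other groups it lay between 2116 and 2961. In a bulk library a lower level in each cell and fewer cells with the transcript cannot be told apart.

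**Figure D1:**
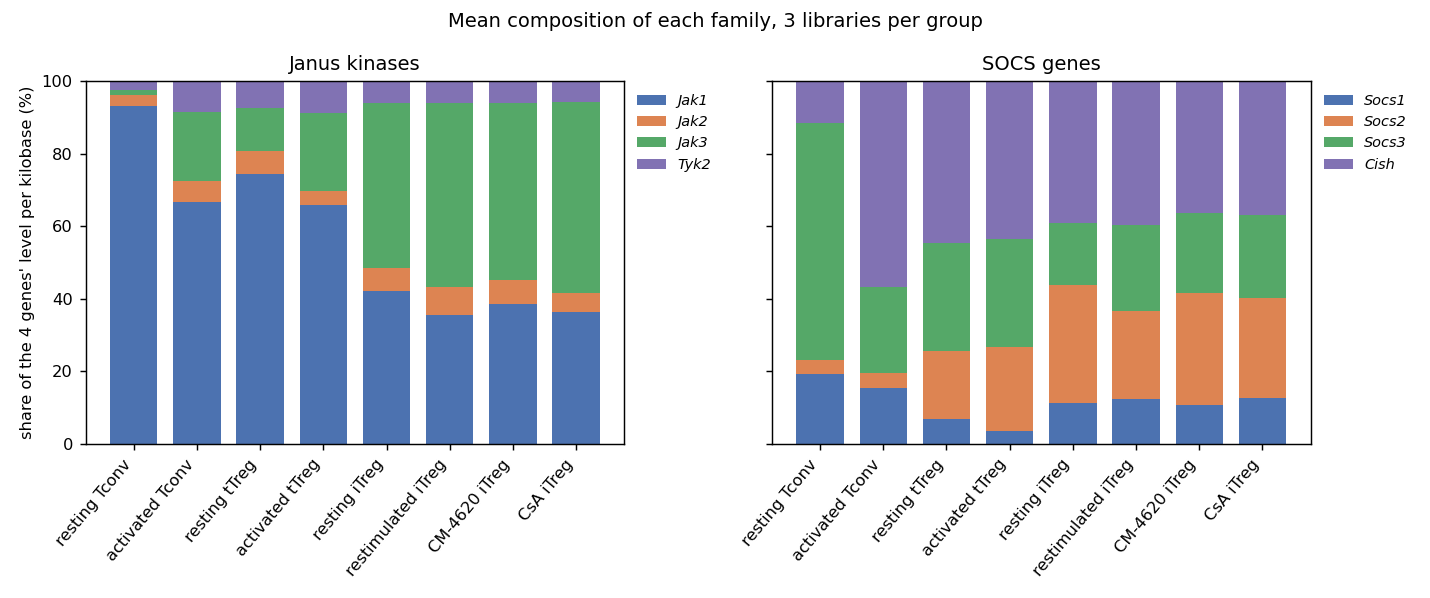
Mean share of each gene in the summed level per kilobase of exon of its family (vertical axis, percent) in the 8 groups (horizontal axis, 3 libraries each), Janus kinases on the left and SOCS genes on the right. Jak1 fills 93.1% of its family in resting Tconvs and 42.3% in resting iTregs, and Socs2 goes from 3.85% to 32.4% of its family between the same groups.

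Jak1, the kinase shared by most of these receptors, was highest in resting Tconvs. Its normalized counts there were 21531, 21047 and 21470, against 6618, 6721 and 6864.5 in activated Tconvs. The tTreg libraries were spread widely, with 5993, 8826 and 12105 at rest and 10391, 6799 and 8490.1 after activation, and they overlapped between these states. All 12 iTreg libraries lay between 3604 and 4053, below every library of the other groups, and the 4 iTreg groups overlapped.

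Jak3, the partner of the common gamma chain, ran in the other direction. It stood at 245.8, 202.6 and 252.8 normalized counts in resting Tconvs and at 1407, 1473 and 1424 in activated Tconvs. Resting tTregs had 791.0, 1222 and 1109 and activated tTregs 2340.5, 1395 and 2574, where replicate 2 was as low as the activated Tconvs. Resting iTregs had 2984, 3199 and 2980.4, and restimulated iTregs 3805, 3990 and 4061. The order of the group means was CsA-treated and restimulated iTregs, which overlapped, then CM-4620-treated iTregs, resting iTregs, activated tTregs and activated Tconvs, which overlapped, resting tTregs and resting Tconvs.

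Jak2 and Tyk2 moved within narrow limits. Jak2 lay between 317.9 and 589.2 normalized counts in all 24 libraries, a 1.62-fold range of the group means, and 6 of the 7 pairs of neighbours in the order of its group means overlapped. Tyk2 lay between 495.2 and 1170 normalized counts, with activated tTregs on top at 1077, 953.6 and 1169.8. Resting iTregs had the lowest Tyk2 mean, 515.4 ± 11.7 (SD, n = 3), and overlapped with resting Tconvs at 523.8 ± 38.1.

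Cish was low in resting Tconvs and high in every other group. Its values were 139.9, 171.6 and 156.2 normalized counts in resting Tconvs and 6736, 6813 and 6985 in activated Tconvs, with no overlap. Resting tTregs already had 6032, 5677 and 5859, and activated tTregs the highest values of all, 8163, 8009 and 8417.5. The 12 iTreg libraries lay between 5255 and 6429, and their 4 groups overlapped along the order of their means, with resting tTregs among them.

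Socs2 was also low in resting Tconvs, at 61.7, 98.5 and 73.7 normalized counts. On activation it rose less than Cish, 9.13-fold, to 655.5, 723.6 and 745.7. Resting tTregs had 3549.6, 3293 and 4203, activated tTregs 7384, 5199 and 7069.7, and resting iTregs 7022.5, 6730.1 and 6597. Every Treg library was thus above every Tconv library. Restimulated iTregs, at 5255, 4878 and 4893, were below the resting ones without overlap, and iTregs restimulated with CM-4620 (7331, 7447 and 6980.4) or with CsA (7059.7, 6789.9 and 6407) were above the restimulated ones in every library.

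Socs1 was lowest in resting Tconvs, at 127.5, 123.8 and 107.1 normalized counts. Activated Tconvs reached 757.8, 1134 and 679.2, whereas tTregs had 397.3, 408.7 and 446.5 at rest and 342.1, 290.4 and 265.2 when activated. Resting iTregs were scattered, with 653.5, 1107 and 451.5, and the other iTreg libraries lay between 716.9 and 1017. Socs3 was almost constant in resting Tconvs, at 402.1, 396.8 and 402.9, and reached 1208, 1401 and 1264 in activated Tconvs. In resting tTregs replicate 1 had 483.5 while the other two had 2765 and 2595, and in activated tTregs replicate 2 had 1829 against 2944 and 2975. Resting iTregs had 1042, 1148 and 1080.5, and restimulated iTregs 1473.5, 1483 and 1523.

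**Figure D2:**
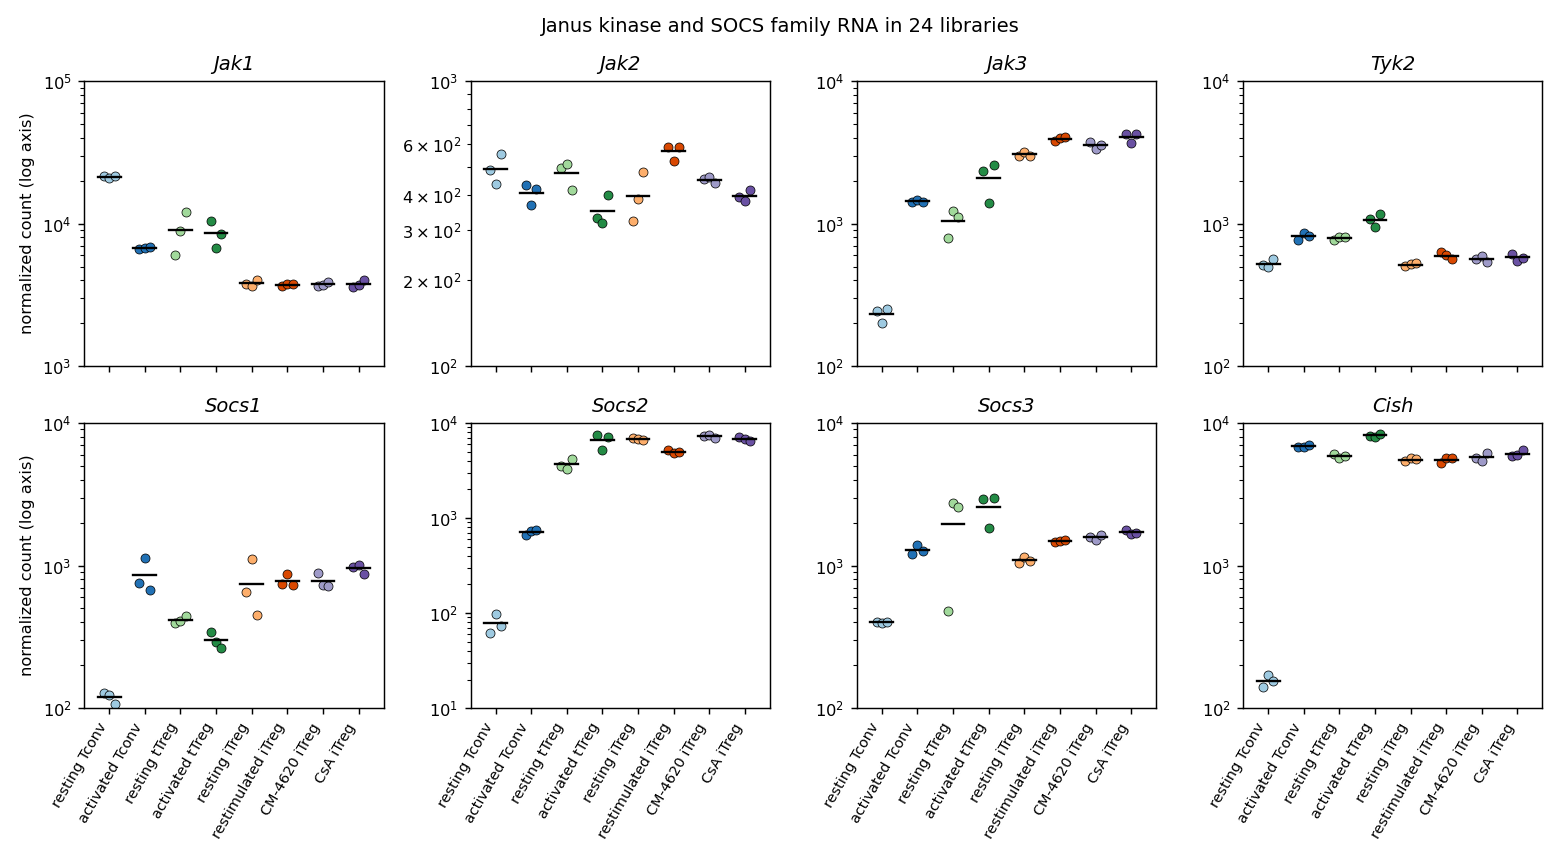
Normalized counts of the 8 genes on a log axis (vertical) in the 8 groups (horizontal), where each point is a library and each bar the mean of 3 libraries; the vertical range differs between panels. Cish and Socs2 are lowest in resting Tconvs, where Jak1 is highest, and resting tTreg replicate 1 lies far below its replicates for Socs3, at 483.5.

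Activation of Tconvs, which sets the stimulated cell against its resting state, changed 7 of the 8 genes. A gene was called changed at an adjusted p below 0.05 in limma (Benjamini-Hochberg over all genes tested) and a log2 difference above 0.5 in size, a rule that called 50.2% of the 11495 genes in this comparison. The 4 feedback genes, Jak3 and Tyk2 rose and Jak1 fell. Cish rose 43.8-fold (log2 difference 5.45 ± 0.073, SE; limma adjusted p = 2.17e-16), Socs2 9.13-fold, Socs1 6.97-fold and Socs3 3.21-fold. Jak3 rose 6.14-fold (2.62 ± 0.19; limma adjusted p = 2.24e-08) and Tyk2 1.56-fold, while Jak1 fell by 1.66 ± 0.19 on the log2 scale (limma adjusted p = 2.38e-06). Jak2 had a log2 difference of -0.27 with a 95% interval of -0.58 to 0.042.

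Activation of tTregs called 2 of the 8 genes, against 21.9% of all genes. Jak3 rose 1.98-fold (log2 difference 0.99 ± 0.19; limma adjusted p = 0.00135) and Socs2 1.77-fold (0.82 ± 0.16; limma adjusted p = 0.00115). Cish (0.49), Tyk2 (0.43) and Jak2 (-0.44) also passed the adjusted p, though not the limit on size, which made 5 of 8 genes past the p alone, against 34.7% of all genes. Cish lay at the limit, and without resting tTreg replicate 1 or activated tTreg replicate 2 it passed both thresholds, at 0.51 and 0.50. Without the latter, Tyk2 was at 0.51 as well and the number called was 4, and Jak2 was at -0.54 without replicate 3 of either tTreg group. Socs1 had -0.49 (95% interval -1.02 to 0.051) and Socs3 0.73 (-0.24 to 1.71), a wide interval that includes 0.

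The responses of Tconvs and tTregs were then compared with each other, as an interaction in the same fit. The responses differed for 5 of the 8 genes, and 34.7% of all genes passed this test. Tconvs responded more strongly in Cish, by 4.97 ± 0.10 on the log2 scale (limma adjusted p = 8.55e-14), in Socs1 by 3.29 ± 0.36, in Socs2 by 2.37 ± 0.22 and in Jak3 by 1.63 ± 0.27. The Jak1 response was 1.63 ± 0.27 lower in Tconvs. Socs3 differed by 0.95 (95% interval -0.43 to 2.32), and by 1.77 with an adjusted p of 1.34e-05 in limma once resting tTreg replicate 1 was left out.

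**Figure D3:**
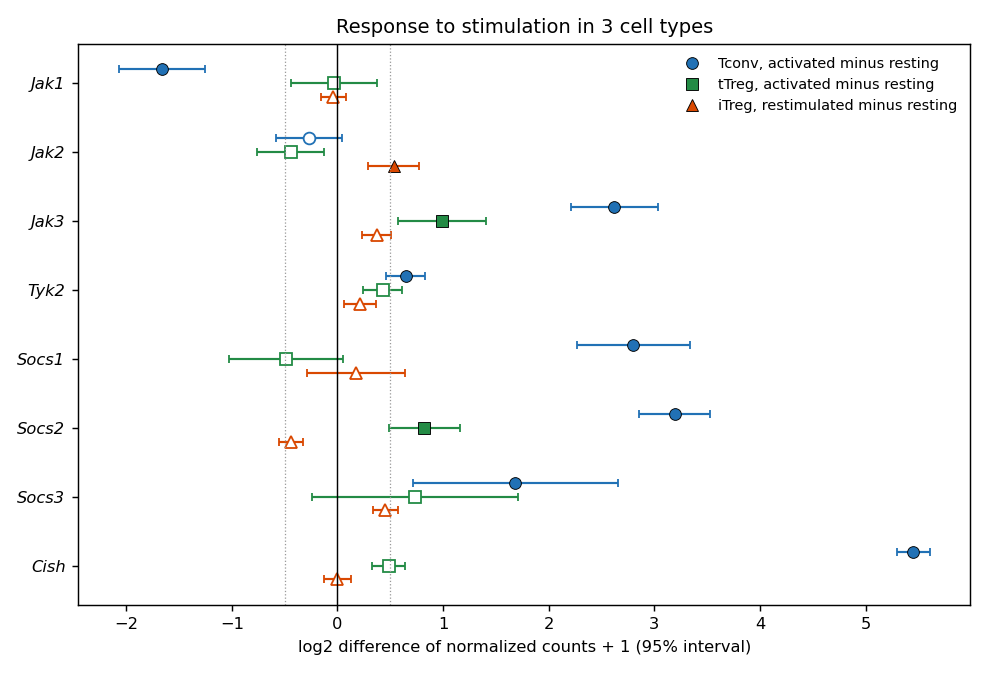
Log2 differences of the 8 genes (vertical axis) after stimulation of Tconvs, tTregs and iTregs, with 95% intervals from limma (horizontal axis, log2 of normalized counts + 1); filled symbols passed both thresholds, and dotted lines mark 0.5 in either direction. Cish spans 5.45 in Tconvs, 0.49 in tTregs and 0.00 in iTregs.

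At rest, tTregs differed from Tconvs in 7 of the 8 genes, where 38.6% of all genes were called. Socs2 was 47.2-fold higher in tTregs (log2 difference 5.56 ± 0.16; limma adjusted p = 7.55e-13) and Cish 37.4-fold higher (5.23 ± 0.073; limma adjusted p = 2.66e-16). Jak3 was 4.39-fold, Socs3 3.77-fold, Socs1 3.48-fold and Tyk2 1.51-fold higher, and Jak1 was 2.48-fold lower. After activation 3 of 8 genes were called, against 48.2% of all genes. Socs2 remained 9.14-fold higher in tTregs (3.19 ± 0.16; limma adjusted p = 4.64e-10) and Socs1 was 2.80-fold lower (limma adjusted p = 0.00013), with no overlap of the libraries for either gene. Jak3 passed narrowly (0.50 ± 0.19; limma adjusted p = 0.0349) and lost the call when any of the 6 libraries compared but activated tTreg replicate 2 was left out, at 0.33 to 0.52. Socs3 was higher by 0.97 (limma adjusted p = 0.0785; edgeR adjusted p = 0.0452). Cish passed the adjusted p with a small log2 difference of 0.26 (95% interval 0.10 to 0.42).

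Resting iTregs were compared with Tconvs and with tTregs. Against resting Tconvs 6 of 8 genes were called, where 63.6% of all genes were: Socs2 was 87.5-fold higher, Cish 35.4-fold, Jak3 13.1-fold, Socs1 5.74-fold and Socs3 2.72-fold higher, and Jak1 was 5.57-fold lower. Against activated Tconvs 4 of 8 were called (41.6% of all genes), with Socs2 9.58-fold (log2 difference 3.26 ± 0.16) and Jak3 2.13-fold higher, and Tyk2 1.59-fold and Jak1 1.76-fold lower. Of all genes called in that comparison 55.1% were higher in iTregs, or 42.5% after quantile normalization. Against resting tTregs 5 of 8 were called (63.4% of all genes), with Jak3 2.98-fold, Socs2 1.85-fold and Socs1 1.65-fold higher, and Jak1 2.25-fold and Tyk2 1.53-fold lower. The Socs1 difference rested on resting iTreg replicate 2, without which it was 0.38 (limma adjusted p = 0.112), and without which Socs1 was lower than in activated Tconvs (-0.62; limma adjusted p = 0.0218). Socs3 was -0.47 against resting tTregs and became a called fall of -1.30 without resting tTreg replicate 1. Cish did not pass the test against resting tTregs, with a log2 difference of -0.083 (95% interval -0.24 to 0.073).

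Restimulation of iTregs through CD3 and CD28 asks how cells that have already been stimulated once respond again. It called 1 of the 8 genes, against 12.8% of the 11105 genes tested in the iTreg libraries. Jak2 rose 1.45-fold (log2 difference 0.53 ± 0.11; limma adjusted p = 0.00226), from 323.6, 385.4 and 480.3 normalized counts to 589.2, 523.3 and 587.6, without overlap. Without resting iTreg replicate 1, the lowest of these, the difference was 0.39 and fell short of the limit on size. By the adjusted p alone 5 of 8 genes passed, against 29.4% of all genes: Socs3 (0.45 ± 0.057; limma adjusted p = 2.96e-05), Jak3 (0.37 ± 0.064), Jak2 and Tyk2 (0.21 ± 0.071) upward, and Socs2 downward (-0.44 ± 0.054; limma adjusted p = 2.52e-05). Cish had no detectable change, with a log2 difference of -0.0010 and a 95% interval of -0.13 to 0.12, and Jak1 had an interval of -0.16 to 0.083. Socs1 had an interval of -0.29 to 0.64, and 0.52 (limma adjusted p = 0.0165) without resting iTreg replicate 2.

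The inhibitor groups ask which of these changes depend on calcium entry or calcineurin. Compared with restimulated iTregs, CM-4620 called 1 of 8 genes (3.3% of all genes), namely Socs2, which was 1.45-fold higher (log2 difference 0.53 ± 0.054; limma adjusted p = 2.66e-05). It was also the only member past the adjusted p alone, which 7.83% of all genes passed. All 3 CM-4620 libraries were above every restimulated library for Socs2, and its call held whichever library was left out. CsA called 1 of 8 genes (2.92% of all genes), Jak2, which was 1.43-fold lower (-0.52 ± 0.11; limma adjusted p = 0.00986). By the adjusted p alone 3 of 8 genes passed under CsA, against 8.51% of all genes, since Socs2 was higher by 0.43 ± 0.054 (limma adjusted p = 0.000228) and Socs3 by 0.20 ± 0.057 (limma adjusted p = 0.0473). The Jak2 call under CsA was narrow, and the difference was -0.49 without restimulated replicate 1 or 3 and -0.48 without CsA replicate 2, each short of a threshold.

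**Figure D4:**
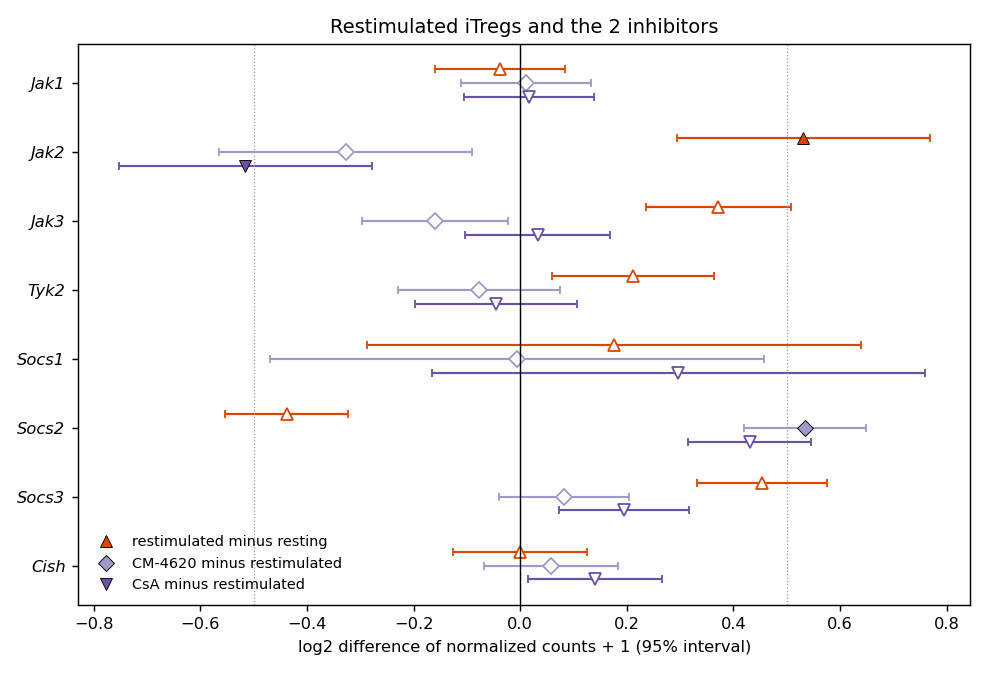
Log2 differences of the 8 genes (vertical axis) in iTregs for restimulation and for each inhibitor against restimulated cells, with 95% intervals from limma (horizontal axis, log2 of normalized counts + 1); filled symbols passed both thresholds, and dotted lines mark 0.5. Socs2 lies at -0.44 for restimulation and at 0.53 and 0.43 for CM-4620 and CsA, while Socs3 lies to the right of 0 in all 3 comparisons.

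For Socs2, inhibitor-treated cells were near the resting level: against resting iTregs the log2 difference was 0.097 (95% interval -0.019 to 0.21) with CM-4620 and -0.0073 (-0.12 to 0.11) with CsA. For Jak2 the same differences were 0.20 (-0.033 to 0.44) and 0.015 (-0.22 to 0.25). Socs3 behaved otherwise and was the gene called against resting iTregs under both inhibitors, 1.45-fold higher with CM-4620 (limma adjusted p = 1.28e-05; 7.1% of all genes called) and 1.57-fold higher with CsA (limma adjusted p = 1.41e-06; 9.43% of all genes). In a fit over all 24 libraries, where the scattered tTreg values enter its spread, Socs3 kept these differences but had adjusted p-values of 0.446 and 0.292 in limma. Socs1 was called against resting iTregs under both inhibitors only when resting iTreg replicate 2 was left out, at 0.51 with CM-4620 and 0.81 with CsA. Jak3 also stayed above the resting level with CsA (0.40 ± 0.064; limma adjusted p = 0.00038), short of the limit on size. No member was called between CM-4620 and CsA, where limma called 0.36% of all genes, and edgeR and DESeq2 called none of the members either. Jak3 was the single member at an unadjusted p below 0.05 (log2 difference -0.19, 95% interval -0.33 to -0.056), and the inhibitors shared the restimulated controls and were each tested at a single condition.

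The restimulation response of iTregs was finally set against the activation responses of the other cells, in a fit over all 24 libraries, and the lengths of the stimulations of these libraries are not given in the sources used here. It differed from the Tconv response in 6 of 8 genes (44.2% of all genes): the iTreg response was lower in Cish by 5.45, in Socs2 by 3.63, in Socs1 by 2.62 and in Jak3 by 2.25 on the log2 scale, and higher in Jak1 by 1.63 and in Jak2 by 0.80. Socs3, with -1.23, did not pass in limma (limma adjusted p = 0.0618) but passed in edgeR (edgeR adjusted p = 0.0296) and DESeq2 (DESeq2 adjusted p = 0.0432). It differed from the tTreg response in 2 of 8 genes (21.3% of all genes). Jak2 was higher by 0.98 ± 0.18 (limma adjusted p = 0.000294), as it had a log2 difference of 0.53 in iTregs and -0.44 in tTregs, and Socs2 was 2.39-fold lower (limma adjusted p = 3.44e-05), with -0.44 in iTregs and 0.82 in tTregs. The Jak3 response was lower by 0.62 and did not pass in limma (limma adjusted p = 0.0519), though it passed in edgeR (edgeR adjusted p = 0.0465) and DESeq2 (DESeq2 adjusted p = 0.0196), and that of Cish by 0.49 (limma adjusted p = 0.00063, short of the limit on size). Both passed the thresholds without activated tTreg replicate 2, Cish also without resting tTreg replicate 1, resting iTreg replicate 1 or restimulated replicate 2 or 3 (-0.51 to -0.50), and Jak3 without resting tTreg replicate 2 or 3 (-0.75 and -0.68). Without resting iTreg replicate 2, Socs1 was called at 1.00, and without resting tTreg replicate 1 Socs3 turned from -0.28 to 0.54 (limma adjusted p = 0.0294).

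Genes upstream and downstream of the members were counted from lists chosen with earlier results of these data known. Of 8 receptor genes of the gamma chain family, 5 rose and 2 fell on Tconv activation, the median log2 difference being 1.59 against -0.04 over all genes, of which 24.5% rose and 25.7% fell. Il2ra, the high-affinity chain of the IL-2 receptor, rose by 6.74, Il15ra by 3.01 and Il2rb by 2.99, while Il7r fell by 4.99. In tTregs, where 11.9% of all genes rose, limma called 0 of these receptors higher and 2 lower, Il9r by 1.37 and Il7r by 0.91. In restimulated iTregs 2 of 7 rose, against 6.7% of all genes, Il15ra by 0.57 and Il21r by 0.54, and Il7r fell by 0.70. Il2ra stood at 38.5 to 42.2 normalized counts in resting Tconvs and at 6390 to 7315 in resting tTregs, and resting iTregs were higher still, at 9978 to 13005.

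Of 10 genes listed as IL-2 and STAT5 targets, 9 rose on Tconv activation, against 24.5% of all genes, with a median log2 difference of 2.80 against -0.04. Among them were Tnfrsf4, encoding the costimulatory receptor OX40, by 4.20, Lta by 3.92, Myc by 3.19 and the survival gene Bcl2l1 by 3.09. In tTregs 2 of 10 rose, against 11.9% of all genes, Pim2 by 0.82 and Bcl2l1 by 0.70. On restimulation of iTregs 2 of 10 rose, against 6.7% of all genes, Pim2 by 1.25 and Tnfrsf4 by 0.76, and Pim1 fell by 0.63. CM-4620 changed 0 of the 10 in limma, where only 3.3% of all genes were called, so little can be read from it. CsA raised 1 of the 10, Pim1 by 0.66, against 1.57% of all genes.

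Of the 7 STAT genes, 4 rose and 2 fell on Tconv activation, where limma called 50.2% of all genes, with Stat5a up by 2.18, Stat2 by 1.34 and Stat5b down by 0.71. In restimulated iTregs 3 of 7 rose (6.7% of all genes), Stat2 by 1.05 and Stat3 by 0.82 among them, and CM-4620 lowered Stat2 by 0.62. Of 11 tested interferon targets, 8 rose in activated Tconvs (24.5% of all genes), led by Gbp2 (6.36) and Irgm1 (4.53). After activation 9 of the 11 were lower in tTregs than in Tconvs (22.6% of all genes), and all 11 were lower in resting iTregs than in activated Tconvs (18.7% of all genes). Restimulation raised 5 of the 9 tested in iTregs (6.7% of all genes), again led by Gbp2 (1.92).

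Of the remaining SOCS genes Socs4, Socs5, Socs6 and Socs7, limma called 0 higher and 2 lower on Tconv activation, where 25.7% of all genes fell. These were Socs6, by 0.86, and Socs4, by 0.57. In tTregs 2 of 4 fell, Socs4 by 0.63 and Socs5 by 0.61, where 10% of all genes fell. In restimulated iTregs 0 of 4 was called, where only 12.8% of all genes were, so little can be read from it. Socs4 and Socs5 were higher in resting tTregs than in resting Tconvs, by 0.76 and 1.02, and lower in resting iTregs than in resting tTregs, by 1.31 and 1.56. Of 13 other negative regulators, 3 rose and 5 fell in activated Tconvs, where 50.2% of all genes were called, with the interferon-induced Usp18 up by 1.98 and Pias1 down by 1.09. Restimulation raised Usp18 by 0.92 and the ubiquitin ligase gene Cblb by 0.75 and lowered Sh2b3 by 0.72, and both inhibitors lowered Usp18, by 0.53 with CM-4620 and 0.59 with CsA.

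Of the 14 further receptors served by the Janus kinases, 11 were tested, and 4 rose and 3 fell in activated Tconvs, where 50.2% of all genes were called. The IL-12 receptor genes Il12rb2 and Il12rb1, whose chains bind Jak2 and Tyk2, rose by 5.61 and 5.58, and Il6ra fell by 3.80. Restimulation of iTregs raised 2 of the 11 and lowered 1, where 12.8% of all genes were called, and the other 8 were not called. The 2 that rose were Il12rb2, by 2.56, and Il12rb1, by 0.74. CM-4620 and CsA lowered Il12rb2 by 0.73 and 0.55. Of 12 ligand genes, 7 did not pass the filter on low values in the Tconv, tTreg and resting iTreg libraries. Some of the 5 that passed did so only through groups where they were high, so nothing is read from how many rose. In Tconvs Lif went from 0 to 1.88 normalized counts at rest to 91.4 to 106.8, and Ifng from 1.03 to 7.90 up to 26.2 to 37.7. Il10 and Il21, which were above the filter already in resting iTregs, rose by 2.23 and 2.00 on restimulation. Il9, which was below the filter at rest, went from 1.52 to 4.22 up to 28.2 to 38.3 normalized counts. Il2 itself was too low to be tested, at 1.14 to 7.20 normalized counts in all 24 libraries.

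**Figure D5:**
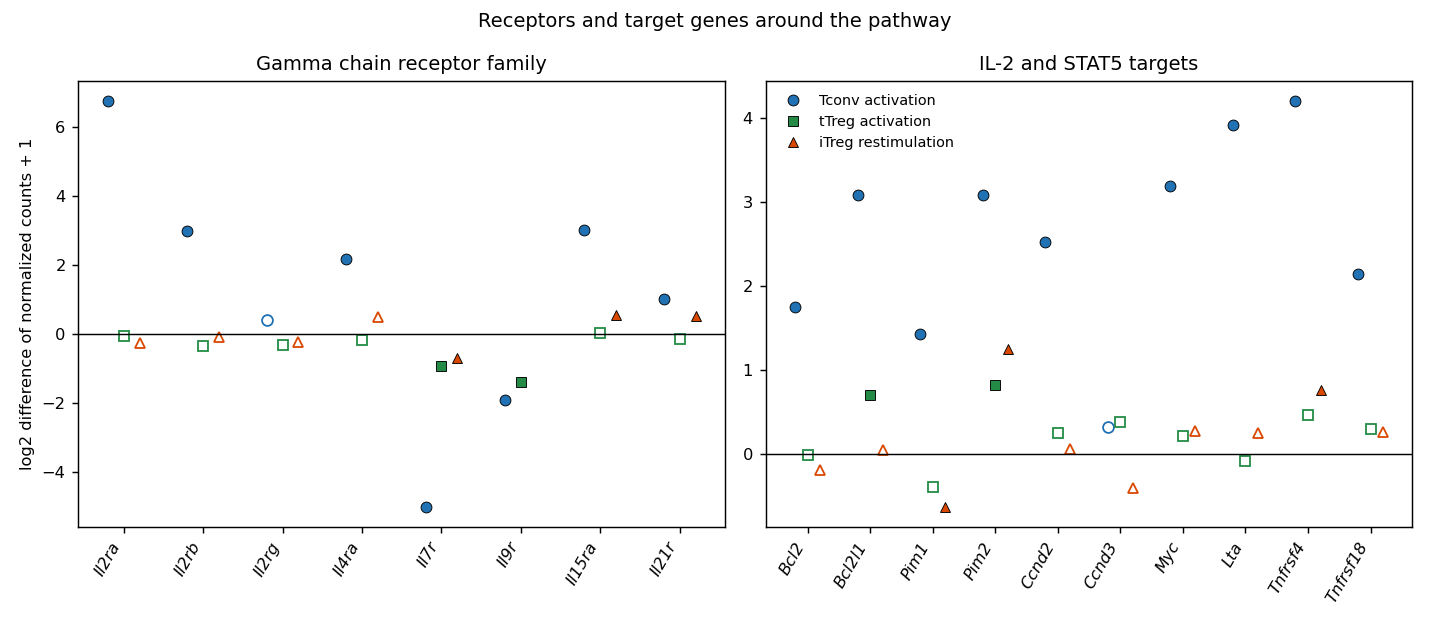
Log2 differences (vertical axis, log2 of normalized counts + 1) of the receptor genes of the gamma chain family (left) and of genes listed as IL-2 and STAT5 targets (right) on activation of Tconvs and tTregs and on restimulation of iTregs; filled symbols passed both thresholds, and Il9r was not tested in the iTreg libraries. In Tconvs 5 receptors and 9 targets rose, where 24.5% of all genes rose, and in tTregs 0 and 2, where 11.9% of all genes rose.

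For the 7 members whose group means spanned more than 1 log2 unit (all but Jak2), the genes with the most similar group means were looked up among 9201 genes with a mean of at least 100 in some group. Pearson's r was taken over the 8 group means of log2(normalized count + 1) and describes these groups only. The pattern of Cish was closest to that of Tnf (r = 0.994), Tpm3-rs7 (0.987) and Ezh2 (0.986), the last a histone methyltransferase gene of dividing lymphocytes, but Spearman's rho with Cish over the 24 libraries was only 0.586, 0.52 and 0.139 for these 3 genes. Socs2 was closest to Plekho2 (0.997), Myo1c (0.995) and Ebi3 (0.993), which encodes a subunit of IL-27 and IL-35. Socs3 was closest to Il1r2 (0.991), the decoy receptor for IL-1, Vwa5a (0.987) and Tefm (0.979), and Socs1 to Gm4951 (0.984), Gtpbp10 (0.982) and Glipr2 (0.981).

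Among the kinases, Jak1 was closest to Snx4 (0.997), Osbpl11 (0.995) and Use1 (0.993), Jak3 to Ptms (0.997), G3bp1 (0.991) and Dhdds (0.989), and Tyk2 to Eci1 (0.989), Fuz (0.987) and Trim32 (0.974). The number of genes with r above 0.95 differed between members, at 297 (3.23%) for Jak1, 165 (1.79%) for Jak3, 74 (0.804%) for Socs2, 39 (0.424%) for Socs1, 27 (0.293%) for Cish, 17 (0.185%) for Tyk2 and 12 (0.130%) for Socs3. Ranked by Spearman's rho over the 24 libraries instead, the nearest 3 genes were others for every member but Tyk2, for which Fuz remained.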

How the data were processed

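RNA was sequenced after a modified SMART-seq2 preparation. In the study's methods, reads were trimmed with cutadapt (1.18), aligned to mm10 with STAR (2.5.3) and counted on genes with RSEM (1.3.0); use of strand is not given in the sources used here. The authors deposited a signal rather than raw counts, scaled by a size factor in each column, so levels depend on these factors. Whole reads came back from the step of each column for 100% of values (tolerance 0.01 reads). The main test was limma (3.58.1, trend; R 4.3.3) on log2(normalized count + 1), for genes reaching 10 normalized counts in 3 or more libraries, fitted over 15 libraries (Tconv, tTreg and resting iTreg), the 12 iTreg libraries, or all 24 (the comparisons of restimulation with activation). edgeR (4.0.16) and DESeq2 (1.42.0) on recovered reads, other scalings, pseudocounts, filters, thresholds and left-out libraries were alternatives. On simulated reads, 91 of 96 genes changed by 1 log2 unit were recovered for restimulation (11048 genes) and 69 of 101 for restimulation against tTreg activation (11355 genes). The simulation gave all genes and libraries the same spread beyond counting error, whereas the real tTreg libraries were more scattered than the others. These rates therefore do not describe single members or comparisons with tTregs. The members, lists and tests were chosen with earlier results of these data known. List genes named are at most the 4 with the largest called changes. Positions and lengths are from GENCODE vM21. Floors cover counting error only. One gene of the STAT list is not reported here.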

Additional observations from a re-analysis of the deposited data

Results flagged for a closer look

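The following results were singled out because a response differed between cell types by a test of the difference itself (limma, both thresholds). Between Tconv and tTreg activation 5 of 8 members differed, against 34.7% of all genes. On the log2 scale, the Tconv response minus the tTreg response was 4.97 for Cish, 3.29 for Socs1, 2.37 for Socs2, 1.63 for Jak3 and -1.63 for Jak1. Between iTreg restimulation and Tconv activation 6 of 8 members differed, against 44.2% of all genes. The iTreg response minus the Tconv response was -5.45 for Cish, -3.63 for Socs2, -2.62 for Socs1, -2.25 for Jak3, 1.63 for Jak1 and 0.80 for Jak2. Between iTreg restimulation and tTreg activation 2 of 8 members differed, Jak2 by 0.98 and Socs2 by -1.26. That count was near the share of all genes, 21.3%. These comparisons share their resting and activated libraries, so they are not separate evidence. Groups of 3 libraries were too small for a test of single outlying libraries.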

How the results depend on the processing

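Over the alternatives, 293 of 320 counts of called members stayed within 1.5 times the reported count, and 2481 of 2560 values of single members kept their direction and their side of the thresholds. With the adjusted p alone the counts were 5 for tTreg activation (34.7% of all genes), 5 for restimulation (29.4%) and 3 for CsA against restimulated (8.51%). They were 5 for activated tTregs against activated Tconvs and 2 for each inhibitor against resting iTregs, whose shares of all genes are not given here. With a log2 difference above 1 they were 0 for tTreg activation, restimulation, either inhibitor against restimulated and either against resting, 2 for resting iTregs against activated Tconvs and against resting tTregs, and 1 for restimulation against tTreg activation. No shares of all genes are given here for the counts above a log2 difference of 1. Those counts show only how the calls of members moved. In a fit of all 24 libraries, the counts for CM-4620 and for CsA against resting iTregs were 0. With single libraries left out, counts ranged from 2 to 4 for tTreg activation, 0 to 2 for restimulation, 0 to 1 for CsA against restimulated, 1 to 2 for CM-4620 and for CsA against resting iTregs, and 2 to 4 for restimulation against tTreg activation. For Socs3, restimulation against tTreg activation, the log2 difference turned from -0.28 to 0.54 (limma adjusted p = 0.0294) without resting tTreg replicate 1, with a range of -0.71 to 0.54 over single libraries left out, and was 0.082 in edgeR and 0.046 in DESeq2. Quantile normalization moved the median of all genes to -0.121 for iTregs against resting Tconvs and lowered the share of higher calls against activated Tconvs from 55.1% to 42.5%, and no call of a member reversed under it. The genes most like each member changed with the measure for all 7 members. Replicate numbers are shared between groups, but not every same-numbered pair correlated above 0.1. Among iTregs the deviations of same-numbered pairs from their group means had a mean correlation of 0.152 (-0.0389 to 0.302), and pairs of other numbers -0.0754. In the fit of 15 libraries these were -0.00699 (-0.425 to 0.244) and 0.00337. Among iTregs the same-numbered pairs of replicate 3 lay highest, at 0.208 to 0.302, and those of replicates 1 and 2 reached at most 0.194. Deviations cancel within each group, so the mean for other numbers follows nearly from that for the same number and is no separate comparison. No source says that a number marks a shared animal or batch, and with replicate number as a block the counts of called members were the same in all 16 comparisons (7 for Tconv activation, 1 for restimulation). With the longest transcript as the length, 46 of 64 levels per kilobase moved by more than 1 SD. With 3 libraries a group, the scattered tTreg libraries limit what can be said of Socs3, Jak1 and Jak3 there.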
